A study of Mus musculus with 113 samples.

Results

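The genes followed here, 10 in number, belong to the cadherin switch and the epithelial state, and were measured through neural differentiation of mouse embryonic stem cells: *Cdh1*, *Cdh2*, *Epcam*, *Krt8*, *Krt18*, *Vim*, *Zeb1*, *Zeb2*, *Snai1* and *Snai2*. They were found by their symbols in the 4 gene tables. All 10 were among the 13541 genes of the SFEB populations, the 13738 genes of the adherent monoculture and the 23107 genes of the E14 samples, and 9 were among the 11449 genes of the single cells, which did not include *Snai2*. SFEB is a floating culture of embryoid body-like aggregates without serum. R1 cells were sampled as SFEB populations in a first series of 14 time points from 0 h to 142 h and in a parallel series of 8 time points from 0 h to 216 h, as 64 single SFEB cells (8 at each time point of the parallel series), and as an adherent monoculture at 15 time points from 0 h to 216 h. Cells of both R1 protocols were replated on coated dishes on day 6 (144 h). R1 cells had been passaged once without feeders before induction. The E14 set held 12 samples, wild-type (WT) and *Fyn* KO cells at day 0 and at day 4, with 3 replicates in each group. The *Fyn* KO line was 1 clone carrying a CRISPR deletion, so clone and genotype cannot be told apart. Each R1 time point of a series was 1 sample, and nothing in the labels says that the E14 replicates came from separate cultures, so their p-values measure only the spread between these samples.

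Cadherins are calcium-dependent adhesion molecules that hold neighbouring cells together at adherens junctions. *Cdh1* encodes E-cadherin, the cadherin of epithelia and of pluripotent stem cells, and *Cdh2* encodes N-cadherin, which takes over when the neural plate forms from the ectoderm. The Zeb and Snail proteins are zinc finger repressors that bind E-box motifs and are best known for repressing *Cdh1*. *Epcam* encodes an epithelial adhesion molecule, *Krt8* and *Krt18* the keratin pair of simple epithelia, and *Vim* the intermediate filament of mesenchymal cells and of neural progenitors.

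The summed level of 6 markers of naive and primed pluripotent cells went from 915 to 82.8 FPKM over the first SFEB series. *Pou5f1*, *Nanog*, *Zfp42* and *Klf4* fell, while *Fgf5* and *Otx2*, markers of the primed state, departed upward by 3.87 (68 h) and 2.36 (42.5 h) on the log2(FPKM + 1) scale and ended 0.40 and 1.78 above 0 h by the fitted curve. The sum of 5 neural progenitor markers (*Sox1*, *Pax6*, *Nes*, *Hes5* and *Fabp7*) went from 28.6 to 670 FPKM. FPKM are fragments per kilobase of transcript, scaled to the number of mapped reads, so levels can be compared between genes within a sample. The population values had been batch corrected with ComBat by the authors, which may have shifted genes against each other. Fibroblast markers also moved with time. The sum of 10 such markers (*Col1a1*, *Col3a1*, *Postn* and others) was 818 FPKM at 0 h of the first series and 34.7 FPKM at 142 h, 856 and 121 FPKM at the ends of the parallel series, and 353 and 67.1 FPKM at the ends of the monoculture. In the E14 cells it was between 2.99 and 7.37 FPKM in the 6 samples of day 0 and between 11.5 and 33.8 FPKM in the 6 of day 4. That E14 sum rested on few of the markers. Among those high enough to be tested, *Mmp2* and *Thy1* were higher at day 4, by 2.82 and 1.72 log2 units in WT and by 2.08 and 1.55 in *Fyn* KO. *Pdgfrb* was not higher (-0.55 and -0.41). In bulk samples fewer cells of a type and less RNA per cell cannot be told apart.

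Change with time was tested in each series by fitting a smooth curve of hours to every gene with limma and testing the time terms together, with Benjamini-Hochberg adjusted p below 0.05 as the threshold. All 10 genes changed with time in the first SFEB series, where 80.3% of all 13009 genes tested did, in the parallel series, where the background was 72.2%, and in the monoculture, where it was 70.7%. With such backgrounds the count says little about these genes, and what follows turns on the size and timing of their courses.

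*Cdh1* rose before it fell. In the first series it went from 74.9 FPKM at 0 h to 209 FPKM at 42.5 h and then down to 80.0 at 92 h, 31.6 at 103 h, 15.2 at 126 h and 8.92 FPKM at 142 h (adjusted p = 9.92e-11). In the parallel series it was 92.6 FPKM at 0 h, 171 at 38 h, 82.7 at 106 h, 43.9 at 144 h and 14.1 FPKM at 216 h (adjusted p = 4.94e-06). In the monoculture the maximum was lower, 120 FPKM at 35.5 h. There *Cdh1* reached 35.4 FPKM at 92.5 h, lay between 35 and 43 FPKM in the next 3 samples and was still 27.7 FPKM at 216 h (adjusted p = 7.78e-06). The monoculture thus held a plateau that neither SFEB series showed.

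*Cdh2* stayed low for about the first 2 days and then rose. In the first series it was between 3.54 and 5.25 FPKM up to 34 h, 12.6 at 68 h, 24.4 at 80 h, 52.0 at 103 h and 81.5 FPKM at 142 h (adjusted p = 2.81e-11). The parallel series started at 5.23 FPKM and held 11.7 at 84 h, 31.7 at 106 h, 48.9 at 144 h and 89.8 FPKM at 216 h (adjusted p = 2.38e-05). In the monoculture *Cdh2* was 3.71 FPKM at 0 h, 20.4 at 68.5 h, 49.7 at 92.5 h and 69.9 FPKM at 216 h (adjusted p = 1.14e-08). The span from the lowest to the highest sample was 4.18, 4.01 and 4.22 on the log2(FPKM + 1) scale in the first series, the parallel series and the monoculture.

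**Figure D1:**
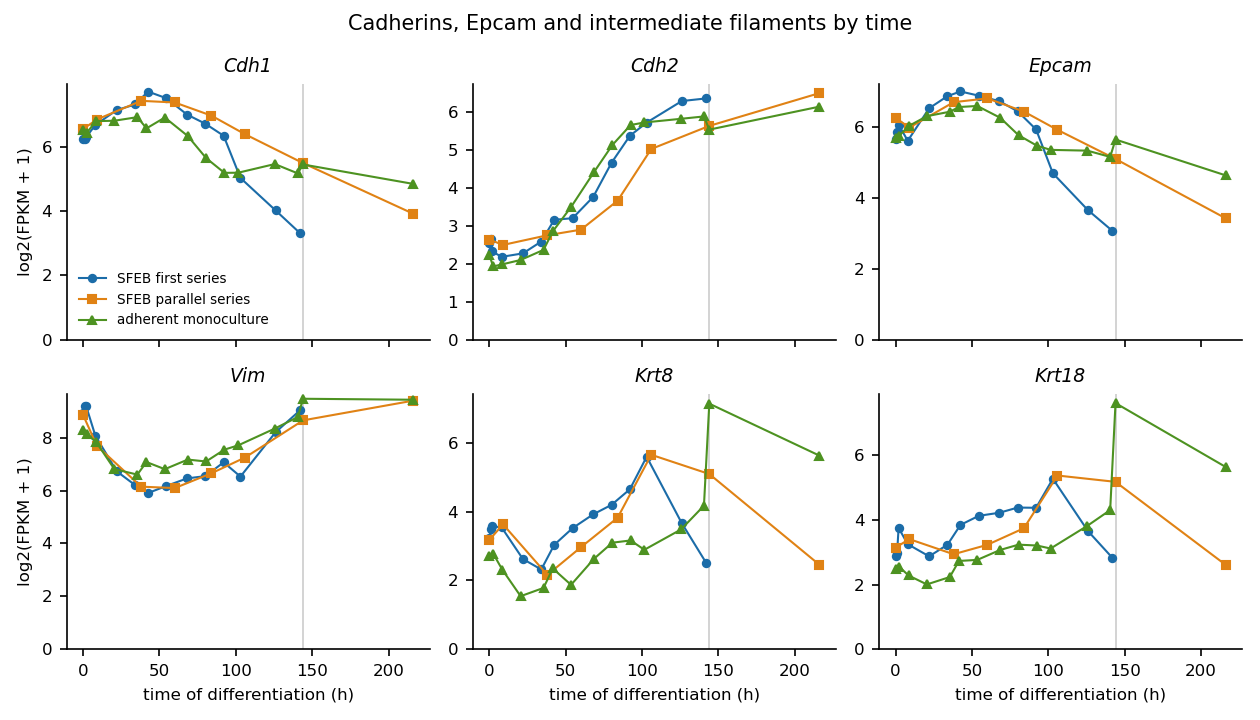
Level of 6 genes as log2(FPKM + 1) against hours of differentiation in the 2 SFEB population series and the adherent monoculture, with 1 sample per point and a grey line at 144 h, the day of replating. *Cdh1* and *Epcam* peaked between 35.5 h and 60 h and fell, *Cdh2* rose in all 3 series, and *Krt8* and *Krt18* jumped at 144 h in the monoculture but had peaked at 103 h or 106 h in SFEB.

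*Cdh2* overtook *Cdh1* once in each series and stayed above it. The last sample with more *Cdh1* and the first with more *Cdh2* were 80.5 h and 92.5 h in the monoculture, 92 h and 103 h in the first SFEB series, and 106 h and 144 h in the parallel series. Linear interpolation of log2((*Cdh2* + 1)/(*Cdh1* + 1)) placed the crossing at 86.7 h, 98.4 h and 140 h. The ratio ended at 3.06 in the first series, at 2.59 in the parallel series and at 1.3 in the monoculture, all on the log2 scale. In the monoculture it lay between 0.37 and 0.72 from 92.5 h to 140.5 h and was 0.10 at 144 h, when both cadherins were near 44 FPKM (*Cdh1* 42.6 and *Cdh2* 45.6 FPKM).

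**Figure D2:**
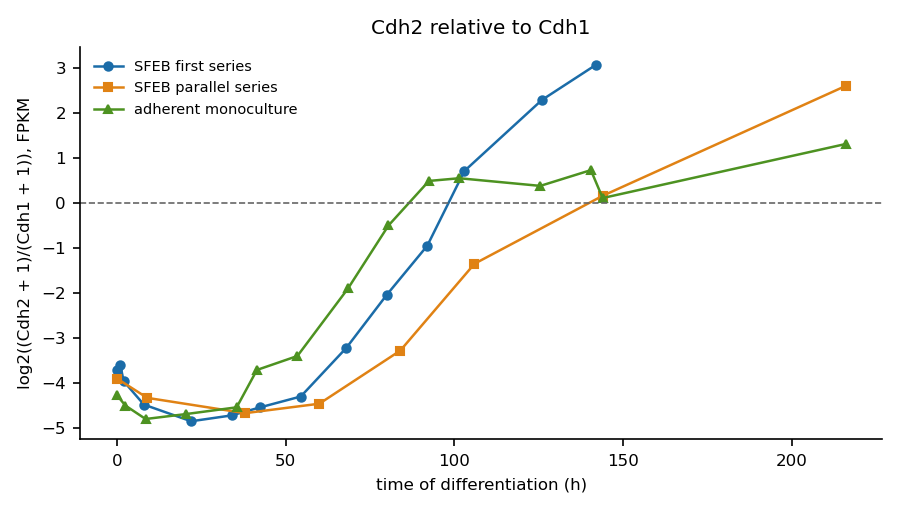
log2((*Cdh2* + 1)/(*Cdh1* + 1)) from FPKM against hours of differentiation, with 1 sample per point. Values above the dashed line at 0 mean more *Cdh2* than *Cdh1*; the monoculture crossed first at 86.7 h and ended at 1.3, while the first SFEB series ended at 3.06.

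On the log2 scale the rise of *Cdh2* came before the fall of *Cdh1*. *Cdh2* reached the middle of its log2 range at 74.8 h in the first series, 97.5 h in the parallel series and 62.3 h in the monoculture. *Cdh1* passed the middle of its range on the way down at 98.9 h, 136 h and 76.4 h. These times were read from single samples, at most 38 h apart, and have no error of their own. The order also depends on the scale. At 80 h of the first series *Cdh1* had gone from 209 to 104 FPKM, while *Cdh2* stood at 24.4 FPKM on its way to 81.5 FPKM. The 2 SFEB series also differed from each other at like times. At 106 h *Cdh1* was 1.49 log2 units higher and *Cdh2* 0.77 lower in the parallel series than the first series interpolated to that hour, and the 144 h sample held 2.18 log2 units more *Cdh1* than the 142 h sample of the first series. With 1 sample per point this difference was not tested. The batches that ComBat corrected are not given in the sources used here, so the correction may have altered differences between the 2 SFEB series and the levels behind the crossing.

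*Epcam* followed *Cdh1*. It went from 48.9 FPKM at 0 h to 126 FPKM at 42.5 h and 7.34 FPKM at 142 h in the first series (adjusted p = 2.22e-09), and from 75.0 to 110 (60 h) and 9.69 FPKM (216 h) in the parallel series (adjusted p = 2.89e-05). In the monoculture it peaked at 94.7 FPKM at 53.5 h, was 34.4 FPKM at 140.5 h and 48.7 at 144 h, and ended at 23.7 FPKM (adjusted p = 1.49e-05). Over the samples of a series, which share the order of time, *Cdh1* and *Epcam* correlated with Pearson r = 0.985 (Spearman rho = 0.947, n = 14), 0.989 (0.952, n = 8) and 0.883 (0.900, n = 15), and with r = 0.945, 0.883 and 0.834 once the 2 samples farthest from the median of *Cdh1* were left out.

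*Krt8* and *Krt18* had a course of their own. In the first series *Krt8* dipped to 3.99 FPKM at 34 h, climbed to 24.2 at 92 h and 47.6 FPKM at 103 h, and was back at 11.7 at 126 h and 4.69 FPKM at 142 h (adjusted p = 3.47e-05). *Krt18* was 37.8 FPKM at 103 h and 6.09 FPKM at 142 h (adjusted p = 0.000111). The parallel series peaked at the neighbouring time, 106 h, with 49.6 FPKM for *Krt8* and 40.6 for *Krt18*. It still held 33.3 and 35.3 FPKM at 144 h, and 4.5 and 5.12 FPKM at 216 h (adjusted p = 0.000612 and 0.000563). The keratin maximum thus fell in the same samples in which the cadherins were changing places in the first series.

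In the monoculture the keratins stayed lower for longer and then jumped. *Krt8* was 17.1 FPKM at 140.5 h, 141 FPKM at 144 h and 48.8 FPKM at 216 h, and *Krt18* was 18.8, 196 and 49.1 FPKM (adjusted p = 0.000381 and 0.00115). Up to 125.5 h neither exceeded 13.1 FPKM. Markers of other lineages were also higher in the 144 h sample. The sum of 5 primitive endoderm markers (*Gata4*, *Gata6*, *Sox17*, *Sox7* and *Dab2*) was 19.1 FPKM at 140.5 h, 80.2 at 144 h and 40.1 FPKM at 216 h, with all 5 at 1 FPKM or more. That table held 3 of the 5 trophectoderm markers and 2 of the 5 mesoderm markers, and their sums went from 1.33 to 12.2 FPKM and from 1.01 to 23.8 FPKM between 140.5 h and 144 h. The trophectoderm sum includes *Krt7*, itself a simple keratin, which was 10.2 FPKM at 144 h. In SFEB the sum of 3 mesoderm markers was 5.40 FPKM at 92 h, 16.2 at 103 h and 4.74 at 126 h, and 32.5 FPKM at 106 h of the parallel series. None of these markers was at 0 in the samples named, and their part in the keratin values was not tested. *Krt8* and *Krt18* rose and fell together, with r = 0.857 (rho = 0.833), 0.970 (0.952) and 0.979 (0.925) in the first series, the parallel series and the monoculture, and r = 0.784, 0.882 and 0.903 without the 2 samples farthest from the median of *Krt8*. RefSeq lists a *Krt8* pseudogene (*Krt8-ps*), so reads of *Krt8* could have been divided between copies.

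The promoters of these 3 epithelial genes are shown because the Zeb and Snail proteins recognise the E-boxes CAGGTG and CACCTG, which are the same site read on opposite strands. The RefSeq promoter table (GRCm38.p6, a later build than the mm9 of the R1 tables) matched 6 of the 10 genes. It held no window for *Cdh1*, *Cdh2*, *Zeb1* or *Snai2*, so these were not searched. For the others, the 250 bases before each start were searched on both strands. Capitals mark the E-boxes.
Epcam, chr17:87635729-87635978, plus strand: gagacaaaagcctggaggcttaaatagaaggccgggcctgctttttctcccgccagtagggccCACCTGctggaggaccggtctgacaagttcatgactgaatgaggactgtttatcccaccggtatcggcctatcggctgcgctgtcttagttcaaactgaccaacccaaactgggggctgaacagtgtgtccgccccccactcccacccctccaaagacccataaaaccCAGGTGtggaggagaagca
Krt8, chr15:102004343-102004592, minus strand: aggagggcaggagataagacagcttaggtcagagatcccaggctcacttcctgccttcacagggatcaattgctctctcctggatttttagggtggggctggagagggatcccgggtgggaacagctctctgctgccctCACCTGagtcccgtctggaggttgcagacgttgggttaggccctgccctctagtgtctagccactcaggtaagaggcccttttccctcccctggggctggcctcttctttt
Krt18, chr15:102027966-102028215, plus strand: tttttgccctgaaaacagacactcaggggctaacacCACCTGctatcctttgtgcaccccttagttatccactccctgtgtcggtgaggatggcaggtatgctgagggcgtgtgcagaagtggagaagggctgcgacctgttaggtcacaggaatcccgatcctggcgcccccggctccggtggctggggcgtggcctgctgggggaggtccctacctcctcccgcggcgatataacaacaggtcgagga

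*Epcam* had 2 E-boxes in its window, from 187 to 182 and from 19 to 14 bases before the start. *Krt8* had 1 (111 to 106 bases before the start), *Krt18* had 1 (214 to 209) and *Snai1* had 1 (126 to 121). The *Vim* window and the 4 *Zeb2* windows had none. Over all 32851 windows of the RefSeq set, 17.2% held at least 1 E-box and 2.06% held 2 or more. A match of letters is a description of these windows and was not linked to binding.

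*Vim* was high, low and high again. In the first series it was 493 FPKM at 0 h, 590 at 1 h, 58.9 at 42.5 h, 91.2 at 103 h and 523 FPKM at 142 h (adjusted p = 8.41e-09). The parallel series ran from 463 FPKM over 67.2 FPKM at 60 h to 674 FPKM at 216 h (adjusted p = 3.13e-05), and the monoculture from 309 over 96.2 FPKM at 35.5 h to 709 at 144 h and 691 FPKM at 216 h (adjusted p = 6.91e-07). The early fall ran beside the fall of the fibroblast marker sum from 818 FPKM at 0 h to 45.8 FPKM at 42.5 h in the first series. At the end of that series the sum was 34.7 FPKM and the neural progenitor sum 670 FPKM. In the parallel series the fibroblast sum was 53.8 FPKM at 60 h, 59.3 at 144 h and 121 FPKM at 216 h, the last with all 10 markers at 1 FPKM or more. The part of either marker group in the *Vim* values was not tested.

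*Zeb1* and *Zeb2*, the 2 zinc finger homeobox repressors, fell from different starting levels to a low point between 38 h and 60 h and then rose. *Zeb1* was 8.44 FPKM at 0 h of the first series, 1.95 at 42.5 h and 23.1 FPKM at 142 h (adjusted p = 2.48e-07), and went from 8.11 over 1.73 to 23.5 FPKM in the parallel series (adjusted p = 0.000145). *Zeb2* was 2.30 FPKM at 0 h, 0.597 at 42.5 h, 6.97 at 80 h and 17.4 FPKM at 142 h (adjusted p = 1.26e-09). In the monoculture *Zeb2* peaked at 10.3 FPKM at 92.5 h and ended at 5.31 FPKM (adjusted p = 3.42e-07), whereas *Zeb1* was highest at 144 h with 16.2 FPKM (adjusted p = 2.83e-06). *Zeb2* reached the middle of its range at 71.3 h, 88.9 h and 61 h in the first series, the parallel series and the monoculture, close to *Cdh2* in each. The early fall of both genes ran beside that of the fibroblast marker sum, from 818 FPKM at 0 h to 45.8 FPKM at 42.5 h of the first series, whose part in it was not tested. *Zeb2* and *Cdh2* correlated with r = 0.952 (rho = 0.833), 0.959 (0.810) and 0.959 (0.743) over the same samples, and with r = 0.908, 0.867 and 0.955 without the 2 samples farthest from the median of *Cdh2*.

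*Snai1* and *Snai2*, the Snail repressors, were highest in the first hours. *Snai1* was 9.15 FPKM at 0 h, 16.4 at 2 h, 2.41 at 22 h and 0.669 FPKM at 142 h in the first series (adjusted p = 2.04e-08), and 9.36 and 1.66 FPKM at the ends of the parallel series (adjusted p = 0.000266). *Snai2* was 7.04 FPKM at 0 h and at most 1.16 FPKM from 22 h on in the first series (adjusted p = 1.82e-06), and went from 7.25 to 1.25 FPKM in the parallel series (adjusted p = 0.000201). From 68 h on, the hours in which *Cdh2* overtook *Cdh1*, both Snail genes were below 2 FPKM in every SFEB sample. In the monoculture *Snai1* was 3.43 FPKM at 0 h, 0.893 at 92.5 h, 7.23 at 144 h and 4.25 FPKM at 216 h (adjusted p = 0.0113), so its maximum fell in the sample with the keratin jump. *Snai2* stayed at or below 3.23 FPKM there (adjusted p = 0.000651). The early decline of both genes ran beside that of the fibroblast markers, whose part in it was not tested.

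**Figure D3:**
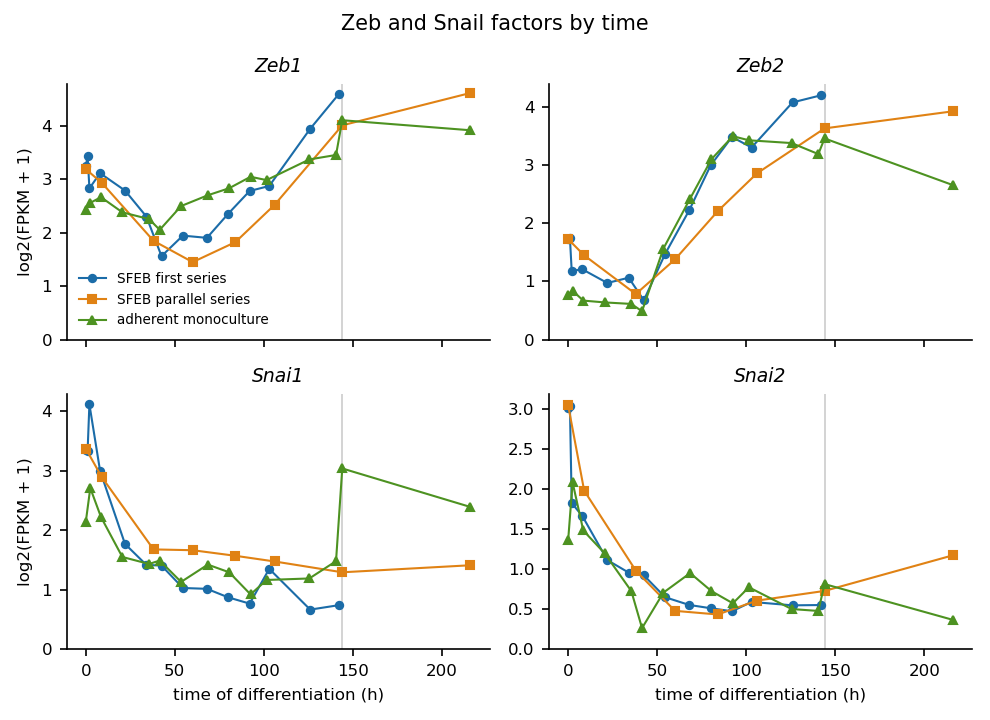
Level of the Zeb and Snail genes as log2(FPKM + 1) against hours of differentiation, 1 sample per point, with a grey line at 144 h. *Zeb1* and *Zeb2* rose late in both SFEB series, to 23.1 and 17.4 FPKM at 142 h of the first series, while *Snai1* and *Snai2* were highest within the first 2.5 h except for *Snai1* at 144 h of the monoculture.

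Other genes ran closely with the cadherins. Among 12706 genes at 1 FPKM or more in at least 3 samples of both tables, the 5 most like *Cdh1* by the lower of their Pearson r over the 22 SFEB populations and over the 15 monoculture samples were *Slc7a7* (0.969 and 0.966), *2410007B07Rik* (0.960 and 0.958), *Abcc4* (0.974 and 0.957), *Slc35f2* (0.959 and 0.940) and *Anxa11* (0.972 and 0.937). The 5 most like *Cdh2* were *Tox3* (0.991 and 0.989), *BC068157* (0.984 and 0.988), *Mex3b* (0.984 and 0.990), *Msi1* (0.983 and 0.988), which encodes an RNA-binding protein of neural progenitors, and *Slc35f1* (0.982 and 0.988). *Krt18* was the gene most like *Krt8* (0.915 and 0.979), followed by *Rab34* (0.783 and 0.920). *Mogat2*, *Eno3* and *Clic6* came next, with lower values of 0.771, 0.755 and 0.752. By the same measure *Epcam* ranked 75 in likeness to *Cdh1* (0.986 and 0.883), and *Zeb2* ranked 134 in likeness to *Cdh2* (0.954 and 0.959).

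Genes of the same structures were taken as lists. Their counts in the first series are to be read against the 80.3% of all genes that changed with time, with 43% of all genes changed and ending higher than they began and 37.4% changed and ending lower. Of 15 other adherens junction genes, 14 changed, 9 of them ending higher and 5 lower than they began by the fitted curve. The largest fitted departures from 0 h were 2.75 log2 units for *Cdh6* and 2.73 for *Ctnna2*, the alpha-catenin of neural cells, and -3.71 for *Cdh11*, a cadherin of mesenchymal cells that also stands in the mesenchymal list below, and -2.85 for *Jup* (plakoglobin). All 13 tight junction genes tested changed and 11 of them ended lower. Among these claudin gene *Cldn4* fell by 3.23 and *F11r* by 1.92, while *Cldn7* and *Cldn6* rose by 2.56 and 1.99 in mid-course and then ended lower. All 9 genes of desmosomes and other simple keratins changed and 8 ended lower, with *Dsg2* (desmoglein 2) at -2.30, *Krt19* at -2.29 and *Dsc2* (desmocollin 2) at 1.06. The medians of these 3 lists were 0.53, -1.02 and -1.52, against 0.25 over all genes.

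Epithelial transcription and splicing factors also moved in mid-course. All 8 tested changed and all 8 ended lower, with *Elf3* at -2.42 and *Grhl3* at -2.38, while the splicing regulator *Esrp1* departed by 2.79 and *Grhl2* by 2.05 before they came down. The list median was -1.12. All 12 other genes of mesenchymal transition changed and 11 ended lower, led by *S100a4* at -6.39 and *Acta2* (smooth muscle actin) at -5.08, with a median of -2.97 beside the fall of the fibroblast markers given above. Of 6 other intermediate filament genes of neural cells, 5 changed and 4 ended higher. The neurofilament genes *Nefm* and *Nefl* stood at 3.46 and 2.71 and *Prph* (peripherin) at -2.54, with a list median of 1.89. In the parallel series the counts for the 6 lists, in the order given, were 13 of 14, 12 of 13, 9 of 9, 8 of 8, 9 of 10 and 4 of 6, and in the monoculture 13 of 15, 7 of 13, 7 of 8, 6 of 8, 11 of 11 and 6 of 6, beside the backgrounds of 72.2% and 70.7%. Of all genes, 38.3% changed and ended higher and 34% changed and ended lower in the parallel series, and 41.2% and 29.5% did so in the monoculture. Of the 12 tight junction genes called in the parallel series none ended higher than it began, whereas 5 of the 7 called in the monoculture did. This difference between protocols was not tested. Of those 5, named after their values were seen, *Cldn3*, *Cldn6*, *Cldn7* and *Marveld2* were highest at 144 h (14.6, 99.9, 36.1 and 5.21 FPKM), and *Pard6b* at 140.5 h. The 144 h sample is the one in which the primitive endoderm sum went from 19.1 to 80.2 FPKM. The mesoderm sum and the trophectoderm sum, the latter mostly *Krt7*, were higher there too. The part of these markers in the tight junction values was not tested.

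In single cells the 2 cadherins were not exclusive. The values were log10(RPKM + 1) after quantile normalization by the authors, and a cell was counted as holding a gene above 0.5 RPKM. Each cell was its own library, and the median number of genes above 0 per cell ran from 6145 at 144 h to 8972 at 0 h. *Cdh1* was above 0.5 RPKM in 8 of 8 cells at 0 h (exact binomial 95% interval 63.1% to 100%), in 3 of 8 at 9 h, in 7 of 8 at 144 h and in 3 of 8 at 216 h (8.52% to 75.5%). *Cdh2* was above it in 0 of 8 cells at 0 h (0% to 36.9%), in at most 3 of 8 up to 106 h, in 8 of 8 at 144 h and in 7 of 8 at 216 h (47.3% to 99.7%). These intervals cover the sampling of cells only. Both cadherins were above 0.5 RPKM in 14 of 64 cells, and 7 of these 14 were the cells of 144 h. At 216 h 2 cells held both, 5 held *Cdh2* alone and 1 held *Cdh1* alone. The 144 h cells lay close to the threshold, since 4 rather than 7 held both above 1 RPKM. *Cdh2* exceeded *Cdh1* in 5 of 8 cells at 144 h and in 6 of 8 at 216 h.

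**Figure D4:**
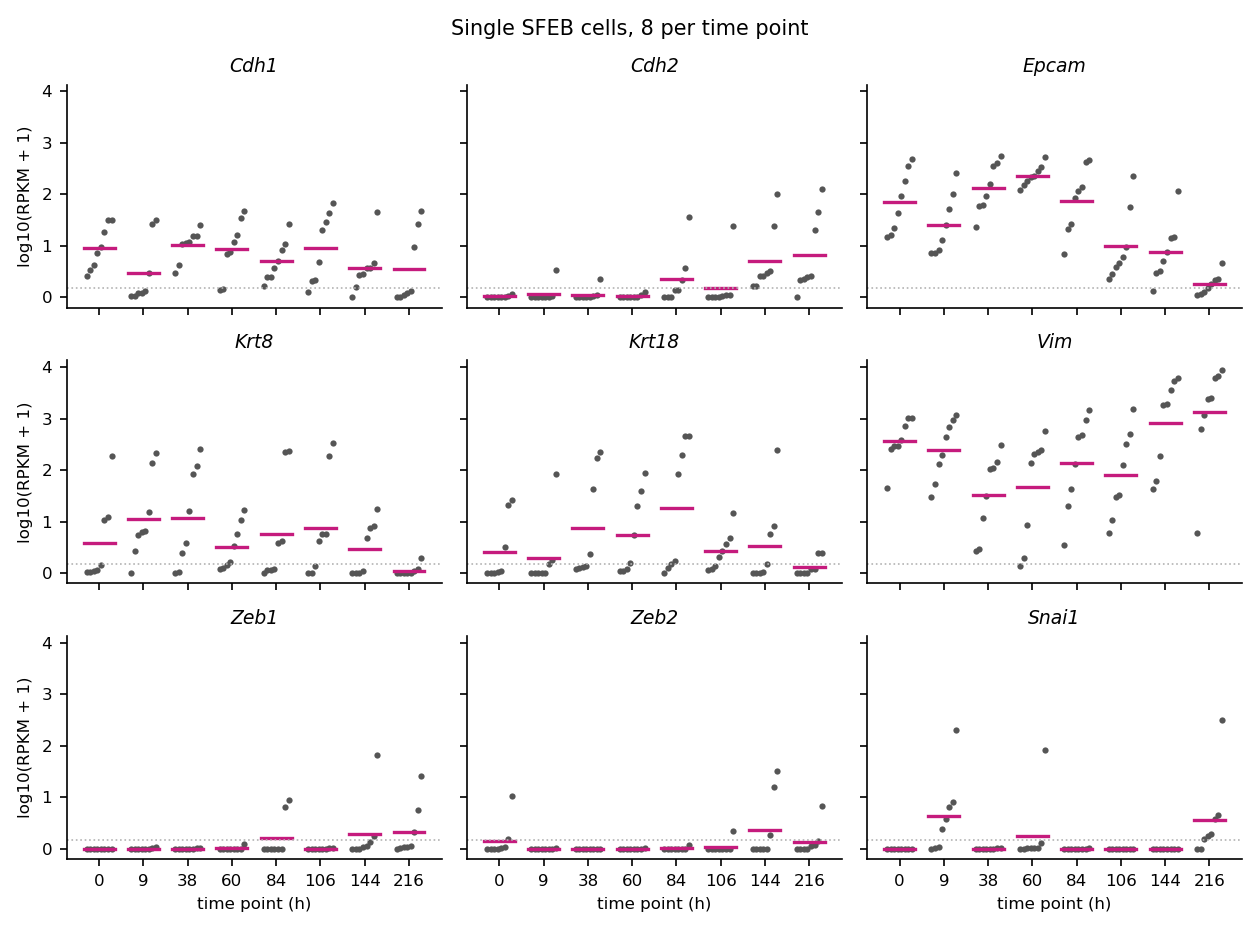
Single SFEB cells at 8 time points as log10(RPKM + 1), with 1 point per cell sorted within its time point, a coloured bar at the mean of 8 cells and a dotted line at 0.5 RPKM. *Cdh2* was above the line in all 8 cells of 144 h while *Cdh1* was still above it in 7, and *Vim* was the highest of the 9 genes at 216 h with a mean of 3.12.

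The keratins varied from cell to cell. *Krt8* was above 0.5 RPKM in 35 of 64 cells and *Krt18* in 31, and both were in 20 of them. At 84 h *Krt18* ranged from 0 to 2.67 and *Krt8* from 0.0107 to 2.37 on the log10 scale, and only 2 of the 8 cells held both. Over the 64 cells their levels correlated with r = 0.0513, and with r = -0.0166 after the time point means were taken out, unlike in the populations. Cells of one time point share a culture, and the read depth behind these values is unknown. At 106 h, the hour of the population maximum, 5 of 8 cells held both. At 216 h *Krt8* was above 0.5 RPKM in 1 cell and *Krt18* in 2.

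*Vim* was detected above 0.5 RPKM in 63 of 64 cells. Its mean was 2.56 ± 0.438 at 0 h, 1.52 ± 0.786 at 38 h and 3.12 ± 1.02 at 216 h (log10 scale, SD over 8 cells). *Zeb1* and *Zeb2* were above 0.5 RPKM in 7 cells each and together in 1. No cell held *Zeb1* above it before 84 h, although the populations of 0 h held 8.44 and 8.11 FPKM. *Snai1* was listed at 0 in all 8 cells of 0 h, 106 h and 144 h, and was above 0.5 RPKM in 5 of 8 cells at 9 h and in 6 of 8 at 216 h. In the cells of 0 h the 7 fibroblast markers of that table summed to 24.6 RPKM on average, with 5 of them above 0.5 RPKM, where the populations of 0 h summed to 818 and 856 FPKM over 10. The tables were normalized separately, so these levels are set side by side only.

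Cell 16 of 216 h stood apart from the other 7 cells of its time. It held 0.974 of *Cdh1*, 0.0126 of *Cdh2*, 0.662 of *Epcam* and 0.779 of *Vim* on the log10 scale, where the others had *Cdh1* from 0 to 1.68, *Cdh2* from 0.34 to 2.11, *Epcam* up to 0.366 and *Vim* from 2.79 to 3.94. Its *Cdh1* thus lay inside their range and its *Cdh2*, *Epcam* and *Vim* outside. A trend of the 8 time point means was tested by the exact permutation of Spearman's rho, two-sided. None of the 11449 genes passed after adjustment (0%, smallest adjusted p = 0.189), with 1291 at an unadjusted p below 0.05, and no gene passed with Pearson's correlation. None of the 9 genes passed. *Cdh2* had rho = 0.81 (exact permutation p = 0.0218, adjusted p = 0.342), *Zeb1* 0.76 (p = 0.0368, adjusted p = 0.384), *Epcam* -0.62 (p = 0.115, adjusted p = 0.539) and *Cdh1* -0.38 (p = 0.36, adjusted p = 0.755), each over 8 time points by exact permutation. None of the genes of the 6 lists passed either.

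In the E14 cells *Fyn* itself was measured first. It was 3.21, 2.74 and 4.00 FPKM in WT at day 0, 9.44, 4.54 and 6.76 FPKM in WT at day 4, and between 0.598 and 1.58 FPKM in the 6 *Fyn* KO samples, below every WT sample. *Fyn* KO was lower than WT by 1.74 ± 0.24 (SE) log2 units at day 4 (limma, adjusted p = 0.0193) and by 1.29 ± 0.24 at day 0 (adjusted p = 0.0601). The deletion covers the start of the gene, so reads of the remaining part can still be counted. One library stood apart. WT day 4 replicate 1 had the lowest mean correlation with its group among the WT day 4 samples (0.944, against 0.954 and 0.956; *Fyn* KO day 0 replicate 3 had 0.939 in its own group), and held 139 FPKM of the 5 neural progenitor markers against 14.8 and 36.6 FPKM. Its primitive endoderm sum was 6.38 FPKM, and those of replicates 2 and 3 were 65.8 and 84.6 FPKM with all 5 markers at 1 FPKM or more. The *Snord22* row, a small nucleolar RNA, held 28.1%, 23.1% and 28.5% of the summed FPKM in WT day 4 replicates 1 and 2 and *Fyn* KO day 4 replicate 2, where the highest gene of every other library held at most 4.39%. The 3 genes called in WT and both genes called in *Fyn* KO below were also called after quantile normalization.

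Day 4 was compared with day 0 to see the same genes in a second cell line. In WT 3 of the 9 genes tested were higher at day 4 (background 15.5%) and none was lower (background 10.3%); *Snai2*, at most 0.793 FPKM in any E14 sample, did not pass the filter on low values. *Cdh2* went from 1.13, 0.569 and 1.72 FPKM at day 0 to 27.5, 2.08 and 6.33 FPKM at day 4. All 3 day 4 values lay above all 3 day 0 values, and replicate 1 was the highest. The difference was 2.05 ± 0.60 (SE) on the log2(FPKM + 1) scale (limma, adjusted p = 0.028). Without WT day 4 replicate 1 it was 1.19 (adjusted p = 0.0558). The *Cdh2* call was kept only without WT day 4 replicate 2, and leaving out any of the other 5 WT samples gave an adjusted p of up to 0.099. The fibroblast marker sum was 4.85, 4.58 and 2.99 FPKM in WT at day 0 and 33.8, 17.8 and 19.7 FPKM at day 4, highest in replicate 1 as *Cdh2* and *Zeb2* were, with 2 to 4 of the 10 markers at 1 FPKM or more at day 4. Its part in the day 4 values was not tested.

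*Zeb2* was listed at 0, 0.0223 and 0.0401 FPKM at day 0 and at 12.8, 0.683 and 2.12 FPKM at day 4 in WT. The groups did not overlap and replicate 1 was again the highest. The difference was 2.03 ± 0.58 (SE) on the log2(FPKM + 1) scale (adjusted p = 0.025), and 1.17 without WT day 4 replicate 1 (adjusted p = 0.0355). With a pseudocount of 0.1 in place of 1 it was 4.56 (adjusted p = 0.00441). The *Zeb2* call was lost without any 1 of the 3 day 0 samples (adjusted p up to 0.0694). *Epcam* was 15.3, 16.9 and 9.71 FPKM at day 0 and 19.4, 65.1 and 93.7 FPKM at day 4. Here replicate 1 was the lowest of the day 4 samples and lay only just above day 0. The difference was 1.78 ± 0.48 (SE; adjusted p = 0.0198), and 2.44 without it (adjusted p = 0.00176). The *Epcam* call was lost without day 0 replicate 3, day 4 replicate 2 or day 4 replicate 3 (adjusted p up to 0.074). Its WT day 4 values ran beside the primitive endoderm sums of these replicates given above, whose part in them was not tested.

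The other genes did not pass the threshold in WT in the main fit, which had no replicate block. *Cdh1* was 79.3, 140 and 157 FPKM at day 0 and 25.7, 73.5 and 104 FPKM at day 4, with overlapping groups. Its difference was -1.03 ± 0.41 (SE; adjusted p = 0.0831), and it passed with the replicate number as a block (adjusted p = 0.0418). Leaving out single WT samples gave differences from -1.44 to -0.45. *Cdh1* passed without day 0 replicate 1 (-1.33, adjusted p = 0.0462) or day 4 replicate 3 (-1.44, adjusted p = 0.0258), and the value nearest to 0 was that without day 4 replicate 1 (adjusted p = 0.251). *Krt18* was 4.15, 7.56 and 4.54 FPKM at day 0 and 5.52, 28.2 and 46.8 FPKM at day 4 (1.74 ± 0.70 SE, adjusted p = 0.0882). It passed without WT day 4 replicate 1 (2.58, adjusted p = 0.0138), and ran beside the primitive endoderm sum of the 3 day 4 replicates given above, whose part in it was not tested. *Krt8*, *Vim*, *Zeb1* and *Snai1* differed by -0.27, -0.16, 0.13 and -0.24, with adjusted p from 0.717 to 0.861.

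**Figure D5:**
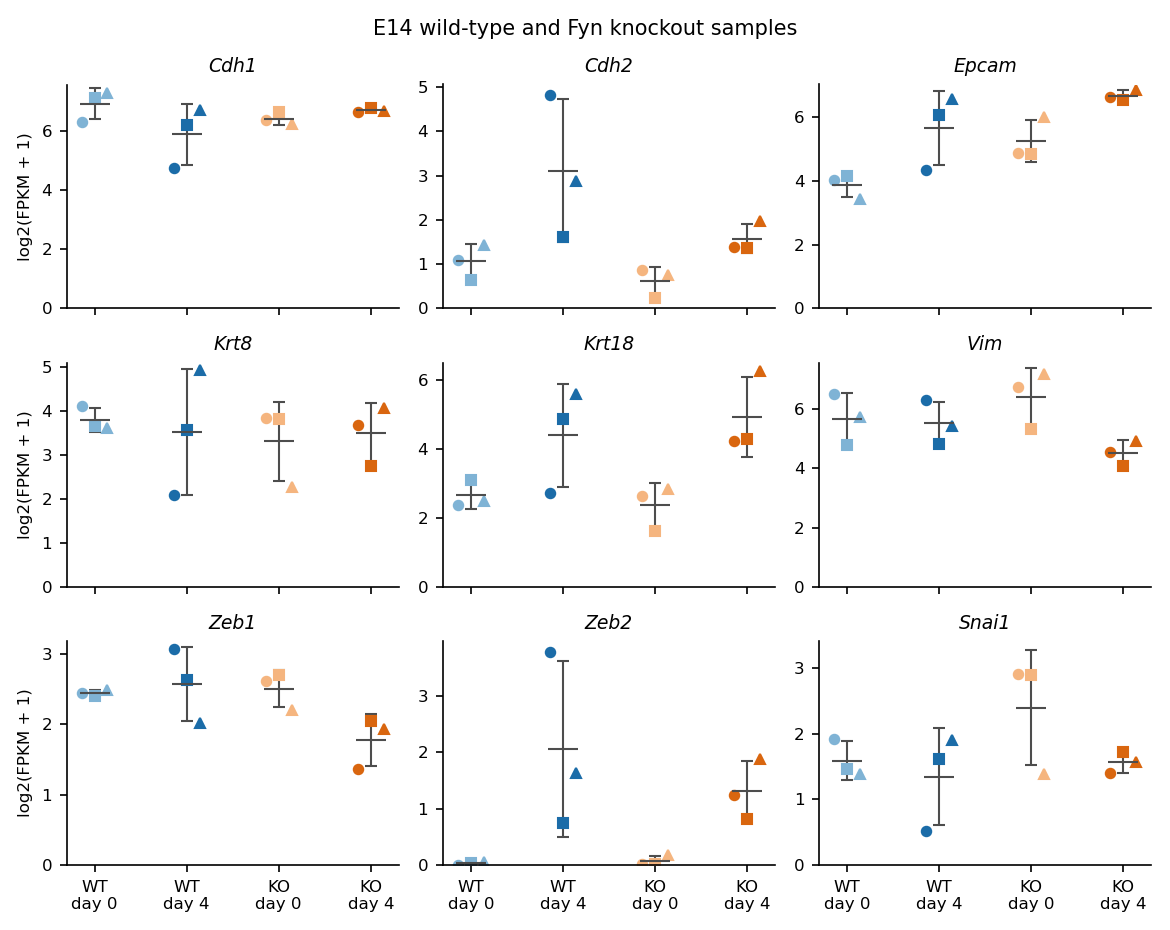
Levels of 9 genes in WT and *Fyn* KO (KO) E14 cells at day 0 and day 4 as log2(FPKM + 1), with circles, squares and triangles for replicates 1, 2 and 3 and grey bars for the mean and SD of 3 replicates. WT day 4 replicate 1 was highest in *Cdh2* and *Zeb2* and lowest in *Cdh1*, *Epcam*, *Krt8* and *Krt18* among the WT day 4 samples.

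In *Fyn* KO cells 1 gene of 9 was higher at day 4 (background 11.8%) and 1 was lower (background 7.56%). *Krt18* went from 5.18, 2.05 and 6.11 FPKM to 17.6, 18.5 and 75.5 FPKM without overlap (2.56 ± 0.70 SE, adjusted p = 0.0253). Replicate 3 was the highest and held a primitive endoderm sum of 16.1 FPKM against 2.51 and 1.89 FPKM in the other 2. *Vim* went from 106, 38.9 and 146 FPKM to 22.5, 16.1 and 29.7 FPKM (-1.89 ± 0.53 SE, adjusted p = 0.0288), with every day 4 value below every day 0 value. Leaving out single *Fyn* KO samples ended the *Krt18* call in 3 of 6 cases (day 0 replicates 1 and 2 and day 4 replicate 3, adjusted p up to 0.107) and the *Vim* call in all but 1 (day 0 replicate 2, adjusted p up to 0.0961 in the others). The fibroblast marker sum went the other way from *Vim*, from 4.12, 3.53 and 7.37 FPKM at day 0 to 11.5, 14 and 27.8 FPKM at day 4, and its part in these values was not tested.

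*Cdh2* in *Fyn* KO cells was 0.81, 0.176 and 0.681 FPKM at day 0 and 1.63, 1.59 and 2.92 FPKM at day 4 (0.97 ± 0.60 SE, adjusted p = 0.281). *Cdh1* was 82.3, 98.5 and 74.6 FPKM and then 100, 109 and 103 FPKM (0.30 ± 0.41 SE, adjusted p = 0.643). *Epcam* was 28.3, 27.6 and 63.5 FPKM at day 0 and 97.7, 90.8 and 114 FPKM at day 4 (1.42 ± 0.48 SE, adjusted p = 0.0596). *Zeb2* was 0.0106, 0.0115 and 0.128 FPKM at day 0 and 1.36, 0.772 and 2.71 FPKM at day 4 (1.25 ± 0.58 SE, adjusted p = 0.151). It passed with a pseudocount of 0.1 (3.44, adjusted p = 0.0203) and when the 2 groups were fitted alone (adjusted p = 0.0363). None of these 4 genes passed the threshold in the fit of all groups. log2((*Cdh2* + 1)/(*Cdh1* + 1)) stayed between -5.41 and -4.73 at day 4 in *Fyn* KO, and was 0.09, -4.59 and -3.85 in WT, where replicate 1 was the only E14 sample with more *Cdh2* than *Cdh1*.

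*Fyn* KO and WT were then compared at each day. None of the 9 genes passed at day 4, where 0.0734% of all genes did, nor at day 0 (0.171%). At day 4 *Cdh2* was 1.53 ± 0.60 log2 units lower in *Fyn* KO (limma, unadjusted p = 0.0266, adjusted p = 0.337) and *Cdh1* was 0.82 ± 0.41 higher (adjusted p = 0.451). Without WT day 4 replicate 1 these differences were -0.67 (adjusted p = 0.67) and 0.24 (adjusted p = 0.878), and over all samples left out in turn they ran from -2.27 to -0.67 and from 0.24 to 1.23. The neural progenitor sum was 139, 14.8 and 36.6 FPKM in the WT samples of day 4 and 10.4, 4.87 and 20.6 FPKM in those of *Fyn* KO. The primitive endoderm sum was 6.38, 65.8 and 84.6 against 2.51, 1.89 and 16.1 FPKM, and the part of these cells in the differences was not tested. At day 0 the largest difference among the 9 was 1.37 ± 0.48 for *Epcam*, higher in *Fyn* KO in every sample (adjusted p = 0.222). The difference of the day 4 change between the lines passed for no gene (0%, with 537 at an unadjusted p below 0.05). It was 1.32 ± 0.57 for *Cdh1*, -1.74 ± 0.76 for *Vim* and -0.86 ± 0.38 for *Zeb1*, each with an adjusted p of 0.997, and 0.75, -1.35 and -0.61 without WT day 4 replicate 1 (adjusted p = 0.999). The 2 lines share no samples, but the day 4 change and the comparison between lines use the same day 4 values.

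The lists of related genes were mixed in the E14 cells, where 15.5% of all genes were higher and 10.3% lower at day 4 in WT. In WT 5 of 11 adherens junction genes tested passed, 3 higher at day 4 (*Pvrl3*, which encodes nectin 3, by 1.41 and *Mllt4*, which encodes afadin, by 1.01 among them) and 2 lower (*Jup* by -1.42 and *Ctnnd1* by -0.35). Of 13 tight junction genes 4 were higher, with *Cldn6* at 3.54 and *Cgn* (cingulin) at 1.91, and 1 was lower, *Cldn4* at -2.44. Of 8 desmosome and keratin genes 2 passed, *Dsc2* at 1.03 and *Dsg2* at -1.70. Among 8 epithelial factors *Esrp1* was higher (2.54) and *Elf3* (-3.10) and *Esrp2* (-1.17) were lower. *Fn1* (fibronectin) was lower by -1.87 as the only one of 5 mesenchymal transition genes to pass. Of 7 intermediate filament genes 2 were higher, *Ina* (2.11) and *Synm* (0.73), and 3 were lower, among them *Nefl* (-2.45) and *Nefm* (-1.74). The list medians were -0.24, 0.55, 0.30, -0.20, 0.33 and 0.26, against 0.08 over all genes. Without WT day 4 replicate 1, of all 12257 genes 1426 were higher and 845 lower. The counts of higher and lower genes in the 6 lists were then 4 and 0, 6 and 1, 1 and 0, 1 and 2, 0 and 0, and 1 and 2. *Jup* (-0.99, adjusted p = 0.0855), *Ctnnd1* (-0.29, 0.146), *Dsg2* (-1.12, 0.0636), *Fn1* (-1.49, 0.114), *Ina* (2.32, 0.0529) and *Sync* (-1.55, 0.0758) were then no longer called. In *Fyn* KO cells, beside backgrounds of 11.8% and 7.56%, the counts of higher and lower genes were 0 and 2, 6 and 0, 1 and 1, 1 and 1, 1 and 0, and 2 and 1 for the 6 lists. No gene of any list passed between the lines at either day or in the difference of their changes.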

How the data were processed

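Per the labels and the study's methods, the authors mapped reads to mm9 and quantified genes with Cufflinks. The submitters' processing notes name TopHat2 2.0.8b and Cufflinks 2.1.1, with mm10 for the E14 samples, while the methods name older versions of both. The deposited values were FPKM for the monoculture and the E14 cells, FPKM corrected with ComBat, and so partly negative, for the SFEB populations (1256 values below 0 were set to 0, none of them of the 10 genes), and log10(RPKM + 1) values, quantile normalized by the authors, for the single cells. 2008 of the 11449 genes in the cell table were above 0.5 RPKM in fewer than 8 cells. Read depth is unknown from these values.

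Genes at 1 FPKM or more in at least 3 samples of a series, or of the 12 E14 samples, were tested on log2(FPKM + 1), a scale that understates the change of low genes, with limma 3.58.1 in R 4.3.3 (trend and Benjamini-Hochberg adjustment over all genes). Series were fitted alone with a natural spline of hours with 3 degrees of freedom. The F test has no direction. E14 groups were fitted in 1 model. Cells were averaged per time point, so that 8 values entered an exact permutation test. Tables were normalized separately and tested only within themselves. Each fit was tested on simulated data. Alternatives covered the pseudocount, the filter, the time scale and shape, quantile normalization, single libraries and the replicate number as a block.

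Equal replicate numbers deviated together between WT day 0 and WT day 4 (r of the residuals 0.199, 0.22 and 0.224) and between WT and Fyn KO at day 4 (0.136, 0.258 and 0.24), each above 0.1, so those numbers were taken to pair the samples. The main fits did not use this pairing, so their p-values ignore it. It entered only in the alternative with a replicate block. The other comparisons had a number below that limit (0.0239, 0.0899 and 0.00112 between Fyn KO day 0 and day 4, and 0.0628, 0.339 and -0.115 between the lines at day 0) and were not taken as paired.

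The 10 genes, the 6 lists and the marker lists were chosen with earlier results of these data known. Besides the 10 genes and Fyn, the text names the 5 genes most like Cdh1, Cdh2 and Krt8, and up to 2 rises and 2 falls among called genes of each list in the first SFEB series and in WT. E-boxes were searched in RefSeq promoter windows.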

Additional observations from a re-analysis of the deposited data

Results flagged for a closer look

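In groups of 8 cells of 1 time point, 69 gene and time combinations of the 9 genes were checked for a cell far from the rest, meaning that its gap to the nearest cell was more than Dixon's critical share of the range. Chance flags about 1 in 20 groups of normally spread values, and 28 were flagged. In 11 of these the flagged value itself lay under 0.5 RPKM, and in 2 it was a low *Vim* value. Some cells were flagged for several genes, such as cell 13 of 9 h for *Cdh2*, *Zeb1* and *Zeb2*. All values are log10(RPKM + 1).

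For *Cdh2* the single high cells were 0.0691 at 0 h, 0.526 at 9 h, 0.348 at 38 h, 0.096 at 60 h, 1.56 at 84 h and 1.38 at 106 h. The cell of 106 h (cell 12) held *Cdh1* as well, at 1.303, and its 7 neighbours had *Cdh2* up to 0.0551. For *Cdh1* cell 16 of 144 h stood at 1.66 against at most 0.672 in the others.

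*Krt18* had high cells at 1.93 (9 h) and 2.39 (144 h), and *Krt8* at 0.285 (216 h, cell 16). *Vim* had low cells at 1.66 (0 h, cell 4) and 0.779 (216 h, cell 16).

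*Zeb1* had high cells at 0.000658 (0 h), 0.0448 (9 h), 0.0948 (60 h) and 1.82 (144 h), and *Zeb2* at 1.03 (0 h), 0.0102 (9 h), 0.000684 (38 h), 0.0262 (60 h), 0.0671 (84 h), 0.358 (106 h) and 0.829 (216 h). *Snai1* had them at 2.30 (9 h), 0.0272 (38 h), 1.91 (60 h), 0.0145 (84 h) and 2.51 (216 h).

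No gene of the 10 differed between WT and *Fyn* KO in its day 4 change by the test of that difference.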

How the results depend on the processing

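With a straight line of hours in place of a curve, 6 of the 10 genes passed in the first SFEB series and 5 in the parallel series. Of all genes, 7175 of 13009 and 5483 of 12324 passed in these 2 fits. The calls lost were those of *Krt8*, *Krt18*, *Vim* and *Zeb1* in both, and of *Snai2* in the parallel series. In the monoculture that of *Snai1* was lost, where 7701 of all 12879 genes passed. The sign of the largest fitted departure changed for *Krt8* and *Zeb1* in the first series, *Krt8*, *Vim* and *Zeb1* in the parallel series, and *Epcam*, *Snai1* and *Vim* in the monoculture, so only their courses are described. All 10 genes passed in the monoculture without 144 h and 216 h, a setting chosen after seeing the data, beside 8432 of all 12613 genes.

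In WT only 1 of the 9 genes passed when the 2 groups compared were fitted alone, beside 2726 of all 12257 genes. Without a filter on low values 2 of the 10 passed, beside 3224 of all 18841 genes, and *Cdh2* did not (adjusted p = 0.0532). In *Fyn* KO 4 passed in the fit of 2 groups, 4 after quantile normalization and 0 without a filter. Of all genes, 1676 and 2402 of 12257 and 2232 of 18841 passed in these 3 fits. The replicate block moved the WT count from 3 to 4 (adding *Cdh1*) and the *Fyn* KO count, where the numbers did not pair, from 2 to 3 (adding *Epcam*), and changed no other call of the 9 genes. Over all 12257 genes it moved the calls from 3166 to 3563 in WT and from 2370 to 2779 in *Fyn* KO. In *Fyn* KO against WT at day 0, where the numbers did not pair, it moved the genes called from 21 to 38, and in the difference of the changes from 0 to 2. Genes called in *Fyn* KO against WT were 24 and 35 without a filter at day 4 and day 0, 17 at day 4 after quantile normalization, 0 and 2 in the fit of 2 groups, and 1 without a filter for the difference of the changes. None of them was one of the 10.

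Leaving out 1 replicate gave 1843 to 2861 genes and 0 to 3 of the 9 in WT, 1043 to 3064 genes and 0 to 4 in *Fyn* KO, 5 to 14 genes between the lines at day 4, 7 to 161 at day 0 (161 without WT day 0 replicate 1) and 0 to 5 for the difference. No correlation could be computed for *Epcam* and *Vim* from the share of cells above 0. Without WT day 0 replicate 3 none of the 9 passed in WT, and without WT day 0 replicate 2 only *Epcam*. In *Fyn* KO none passed without day 0 replicate 1 or day 4 replicate 3.

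Uncalled values that changed sign were *Zeb1* in WT (-0.03 after quantile normalization), *Krt8* between the lines at day 4 (0.01 with a pseudocount of 0.1 and 0.02 after quantile normalization), and in the cells *Krt18* (rho = 0.39 without 216 h and 0.15 for the share above 0.5 RPKM) and *Snai1* (0.07 for the mean RPKM, 0.17 with Pearson's correlation and 0.16 for that share). Leaving out replicates did so in WT for *Krt8* (-0.97 to 0.45), *Snai1* (-0.53 to 0.17), *Zeb1* (-0.12 to 0.40) and *Vim* (-0.60 to 0.26). It did so for *Krt8* in *Fyn* KO (-0.34 to 0.56), and between the lines at day 4 for *Krt8* (-0.75 to 0.68), *Snai1* (-0.20 to 0.50), *Krt18* (-0.31 to 1.13) and *Zeb2* (-1.40 to 0.12). At day 0 it did so for *Krt8* (-0.75 to 0.04), *Krt18* (-0.52 to 0.09), *Zeb1* (-0.03 to 0.22) and *Zeb2* (-0.01 to 0.07), and in the difference of the changes for *Epcam* (-1.01 to 0.10), *Krt8* (-0.27 to 1.16), *Krt18* (-0.02 to 1.42) and *Zeb2* (-1.43 to 0.08). The causes were not tested. Single samples per R1 time point and 3 replicates per E14 group limit the precision.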
